A study of Mus musculus with 6 samples.

Results

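The 10 genes described here mark megakaryocytes and platelets or encode thrombin receptors: Itga2b, Itgb3, Gp9, Gp1bb, Vwf, Pf4, Ppbp, F2r, F2rl2 and F2rl3. They are 10 of the 27179 genes in the deposited count table, and 8 of them had enough reads to be tested. Itga2b, Pf4, F2r and F2rl2 were selected on the spread of their CPM between the 6 libraries, so their values are given as a description, with no test. The other 6 were chosen for their roles, and Ppbp and Gp1bb among them had too few reads for a test.

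RNA was sequenced from mouse leukaemia cells of the C57BL/6 strain, in 3 libraries from the panobinostat group and 3 from the vehicle group. Panobinostat is an inhibitor of histone deacetylases, and each group was treated for 3 days. Cells of both groups carry A/E9a (a fusion oncogene of acute myeloid leukaemia), NRASG12D (an activated form of a RAS protein) and Ifnar1-/- (loss of a chain of the type I interferon receptor), so no group here has an intact interferon receptor. Viable cells positive for green fluorescent protein were sorted from the spleen. For the dose, the mice's age and the number of animals, values were not given in the sources used here. Whether each library is a separate animal is not stated, and a p-value then reflects only how much these libraries vary, which may be technical.

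Megakaryocytes are the bone marrow and spleen cells that shed platelets. Their surface carries the fibrinogen receptor, an integrin made of the Itga2b and Itgb3 chains, and the von Willebrand factor receptor, made of Gp1ba, Gp1bb, Gp9 and Gp5, while their granules store chemokines such as Pf4 and Ppbp. Thrombin cuts the outer end of protease-activated receptors, which are G protein-coupled, and the new end then switches the receptor on. F2r encodes PAR1, F2rl2 encodes PAR3 and F2rl3 encodes PAR4. In mouse platelets PAR4 carries the thrombin signal with PAR3 as its cofactor, whereas human platelets use PAR1 and PAR4. Itga2b (CD41) also appears on early blood progenitors.

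Library totals ran from 31989622 to 35962605 counts. Levels are given as CPM, counts scaled to a common library size, and a library with 0 counts of a gene allows up to 3 counts, which is 0.0834 to 0.0947 CPM and covers counting error only. Libraries are named by group and by the number in the column names, which the labels do not tie to their own replicate numbers. Vehicle library 1 stood apart from the other vehicle libraries. Its median absolute log2 difference over tested genes was 0.361 from vehicle library 2 and 0.321 from vehicle library 3, against 0.179 between vehicle libraries 2 and 3. From panobinostat library 3 that difference was 0.185. Panobinostat library 1 also stood apart, at 0.235 and 0.243 from panobinostat libraries 2 and 3, against 0.118 between those. The fold changes of the 8 tested genes are therefore given with and without vehicle library 1. Leaving out panobinostat library 1 turned the sign of those of Gp9, Vwf and F2rl3 (0.23, -0.49 and -0.21). It also turned that of Itga2b, from -0.02 to 0.44.

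The sequences just before the starts of the 4 genes picked for their spread are shown because in all 4 vehicle libraries 2 and 3 were the lowest and vehicle library 1 was far above them. They are the 250 bases upstream of the RefSeq start in GRCm38.p6, 5′ to 3′ on the gene's strand. Capitals mark GATAA (the core that GATA factors bind), GGAAG (a core of ETS factors such as Fli1) and TGTGG (a core of RUNX factors), or their reverse complements. The regions are chr11:102469884-102470133 on the minus strand for Itga2b, chr5:90772185-90772434 on the plus strand for Pf4, chr13:95618467-95618716 on the minus strand for F2r and chr13:95696670-95696919 on the plus strand for F2rl2.
Itga2b: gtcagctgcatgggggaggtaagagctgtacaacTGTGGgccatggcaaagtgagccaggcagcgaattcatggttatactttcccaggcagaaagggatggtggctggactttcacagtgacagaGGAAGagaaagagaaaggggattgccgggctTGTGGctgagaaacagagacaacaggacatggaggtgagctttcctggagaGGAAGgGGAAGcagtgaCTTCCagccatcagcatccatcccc
Pf4: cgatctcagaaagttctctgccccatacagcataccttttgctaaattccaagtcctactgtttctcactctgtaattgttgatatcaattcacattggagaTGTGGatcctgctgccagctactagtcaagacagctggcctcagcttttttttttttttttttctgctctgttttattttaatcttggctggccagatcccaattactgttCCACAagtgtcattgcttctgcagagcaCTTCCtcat
F2r: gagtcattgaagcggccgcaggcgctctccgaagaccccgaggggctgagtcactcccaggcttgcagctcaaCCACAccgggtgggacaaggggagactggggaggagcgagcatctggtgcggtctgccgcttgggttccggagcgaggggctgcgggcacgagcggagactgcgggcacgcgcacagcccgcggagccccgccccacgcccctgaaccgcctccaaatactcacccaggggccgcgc
F2rl2: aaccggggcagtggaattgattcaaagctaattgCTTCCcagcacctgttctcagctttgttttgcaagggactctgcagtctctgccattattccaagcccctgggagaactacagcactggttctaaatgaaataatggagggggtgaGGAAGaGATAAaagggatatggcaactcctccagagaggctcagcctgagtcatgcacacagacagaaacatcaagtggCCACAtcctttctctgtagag

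These letters were common. Over the same windows of 32851 RefSeq promoters, GATAA was present on either strand in 22.6%, GGAAG in 64.1% and TGTGG in 49.3%. RefSeq windows were matched for 8 of the 10 genes, all but Itgb3 and Vwf, and GATAA was found in 3, GGAAG in 7 and TGTGG in 8 of these 8. F2rl2 held GATAA 94 bases before its start, next to a GGAAG at 100 bases, and Itga2b held 4 copies of GGAAG and no GATAA. F2r had 1 TGTGG match and neither of the other motifs. A match describes letters in the window and is no measure of binding.

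Itga2b, the alpha chain of the fibrinogen receptor (chromosome 11, 102453297 to 102469883 in GRCm38), was picked for its spread between libraries. It had 12.9, 54.5 and 85.9 CPM in panobinostat libraries 1 to 3, against 149, 3.99 and 2.90 CPM in vehicle libraries 1 to 3. Vehicle library 1 was the highest of all 6 and the other vehicle libraries were the lowest, so the groups overlapped. The panobinostat mean was 51.1 ± 36.6 CPM and the vehicle mean 51.8 ± 83.8 CPM (SD, n = 3 each), a log2 fold change of -0.02. Without vehicle library 1 the log2 fold change was 3.88, the panobinostat libraries all lying above both remaining vehicle libraries. Vehicle library 1 had 43.1 times the mean of vehicle libraries 2 and 3. In bulk RNA, fewer cells of a type and less RNA per cell cannot be told apart.

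Itgb3, the beta chain that pairs with Itga2b (chromosome 11, 104608000 to 104670476), was counted at a far lower level. It had 0.278, 0.421 and 0.474 CPM in the panobinostat libraries and 1.39, 0.401 and 0.174 CPM in the vehicle libraries, from 6 to 44 reads per library. Vehicle library 1 was again the highest. Panobinostat against vehicle gave a log2 fold change of -0.73 (SE 0.772, edgeR adjusted p = 0.998), and leaving out vehicle library 1 turned it to 0.43 (edgeR adjusted p = 0.733). Per kilobase of transcript, the Itga2b level was 78.4, 218 and 305 times that of Itgb3 in the panobinostat libraries and 180, 16.7 and 28.0 times in the vehicle libraries. The other alpha chain that pairs with Itgb3, Itgav of the vitronectin receptor, varied less, at 1.72, 1.65 and 1.67 CPM per kilobase in the panobinostat libraries and 2.53, 1.33 and 1.28 CPM per kilobase in the vehicle libraries.

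Gp9, a small subunit of the von Willebrand factor receptor (chromosome 6, 87776131 to 87779786), was low in a single library. It had 0.278, 3.03 and 4.03 CPM in the panobinostat libraries and 3.98, 2.41 and 2.67 CPM in the vehicle libraries. Panobinostat library 1 held 10 reads, against 84 to 136 in the other 5 libraries. The log2 fold change was -0.30 (SE 0.831, edgeR adjusted p = 0.998), and it was -0.07 without vehicle library 1 and 0.23 without panobinostat library 1. Gp1bb, the disulphide-linked partner of Gp1ba (chromosome 16, 18620319 to 18622403), had 2, 3 and 2 reads in the panobinostat libraries and 2, 0 and 0 reads in the vehicle libraries, at or below the 3-count limit throughout. In the GENCODE annotation 1902 of its 2087 exon bases are shared with Septin5 on the same strand, and how shared bases were counted was not stated, so its counts are uncertain.

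The remaining subunits of that receptor were not low. Gp1ba, the chain that binds von Willebrand factor, was at 19.6, 18.8 and 17.8 CPM per kilobase in the panobinostat libraries and at 25.9, 16.2 and 16.0 CPM per kilobase in the vehicle libraries. Gp5, which thrombin also cuts, was at 96.0, 140 and 129 CPM per kilobase in the panobinostat libraries and at 122, 107 and 107 CPM per kilobase in the vehicle libraries. Per kilobase, Gp1ba exceeded Gp9 62.0-fold in panobinostat library 1 and 3.88- to 5.93-fold in the other 5 libraries. Gp1ba and Gp5 had log2 fold changes of -0.05 (SE 0.204) and 0.12 (SE 0.162).

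**Figure D1:**
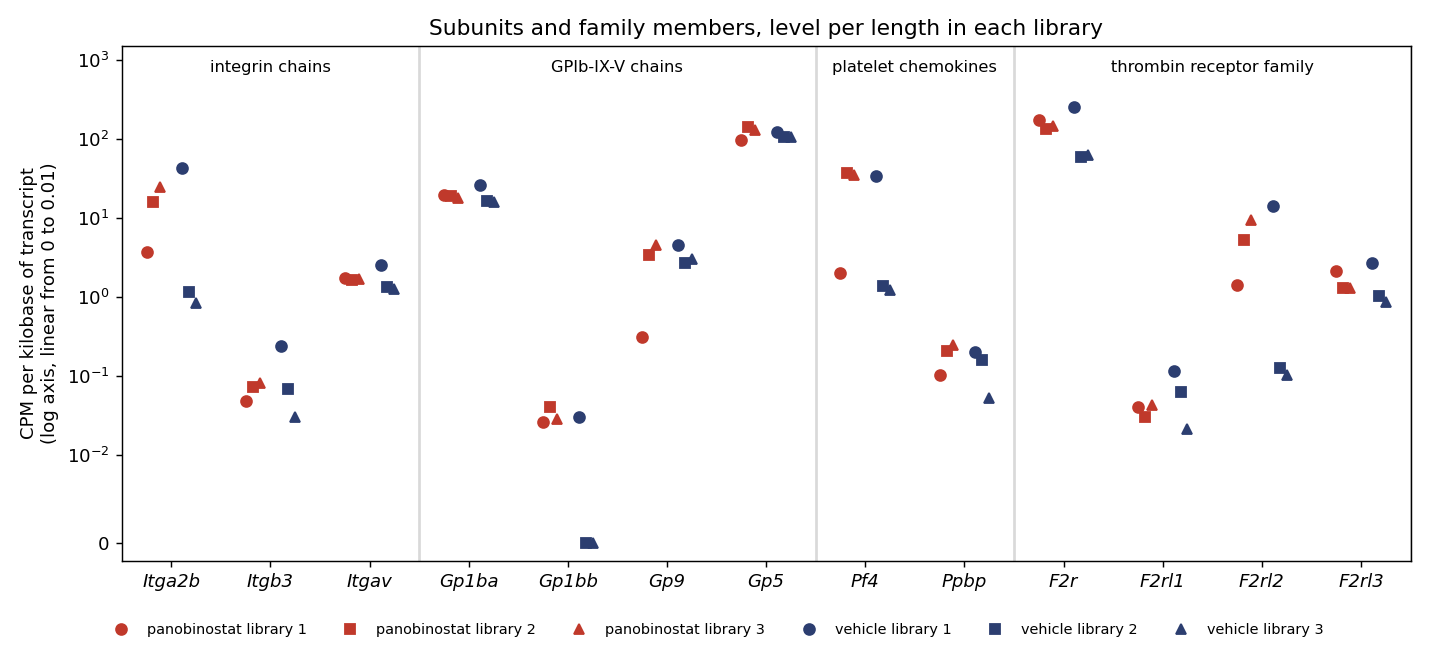
Levels per kilobase of transcript (CPM per kilobase, log axis that is linear from 0 to 0.01) of integrin chains, von Willebrand factor receptor (GPIb-IX-V) subunits, platelet chemokines and the thrombin receptor family, panobinostat libraries left of vehicle libraries, 1 point per library. Itga2b ran from 0.844 to 43.2 CPM per kilobase while Gp5 stayed between 96.0 and 140.

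Vwf, the ligand of that receptor and a product of megakaryocytes and endothelial cells (chromosome 6, 125552948 to 125686679), did not follow Itga2b. It had 2.03, 0.815 and 0.474 CPM in the panobinostat libraries and 1.42, 0.115 and 1.19 CPM in the vehicle libraries, from 4 to 73 reads. Panobinostat library 1 was the highest and vehicle library 2 the lowest. The log2 fold change was 0.29 (SE 0.920, edgeR adjusted p = 0.998) and 0.74 without vehicle library 1 (edgeR adjusted p = 0.742). Of 15 endothelial markers, 5 (Cdh5, Tie1, Emcn, Robo4 and Sox17) had no read in any library, against 8152 of all 27179 genes. The 15 summed to 97.6 to 123 CPM in the panobinostat libraries and 72.6 to 149 CPM in the vehicle libraries, most of it from Egfl7 and Plvap.

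Pf4, platelet factor 4, a chemokine of alpha granules (chromosome 5, 90772435 to 90773383), was high in 3 libraries and low in the other 3. It had 1.19, 21.7 and 20.7 CPM in the panobinostat libraries and 19.9, 0.803 and 0.725 CPM in the vehicle libraries. Panobinostat libraries 2 and 3 and vehicle library 1 were near 20 CPM, and the other 3 libraries were near 1 CPM. The panobinostat mean was 14.5 ± 11.6 CPM and the vehicle mean 7.15 ± 11.1 CPM (SD, n = 3 each), a log2 fold change of 1.02, and 4.23 without vehicle library 1. Ppbp, the neighbouring platelet chemokine (chromosome 5, 90768518 to 90770063), had 4, 8 and 9 reads in the panobinostat libraries and 7, 6 and 2 reads in the vehicle libraries. Its levels were 0.111 to 0.267 CPM and 0.0580 to 0.221 CPM in those groups, which overlapped.

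F2r (PAR1; chromosome 13, 95601780 to 95618466) was the most abundant of the 10 genes by CPM. It had 584, 451 and 488 CPM in the panobinostat libraries and 843, 197 and 207 CPM in the vehicle libraries. The panobinostat libraries lay between vehicle library 1 above them and vehicle libraries 2 and 3 below them. Means were 508 ± 68.6 CPM with panobinostat and 416 ± 370 CPM with vehicle (SD, n = 3 each), a log2 fold change of 0.29, and 1.32 without vehicle library 1. Highest and lowest library differed 4.29-fold, against 51.2-fold for Itga2b, 30.0-fold for Pf4 and 137-fold for F2rl2.

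F2rl2 (PAR3; chromosome 13, 95696920 to 95702768), also picked for its spread, had the widest range of the 8 tested genes. It had 3.58, 13.2 and 23.4 CPM in the panobinostat libraries and 35.7, 0.315 and 0.261 CPM in the vehicle libraries. Vehicle libraries 2 and 3 held 11 and 9 reads, against 1130 in vehicle library 1 and 129 to 791 in the panobinostat libraries. The log2 fold change was 0.15, and 5.51 without vehicle library 1. F2rl2 lies inside Iqgap2, a scaffold protein gene on the opposite strand, with no shared exon base. Iqgap2 had 121, 160 and 168 CPM in the panobinostat libraries and 213, 64.6 and 72.8 CPM in the vehicle libraries. Because the strand setting of the counting was not stated, reads from Iqgap2 introns in F2rl2 exons cannot be told apart from F2rl2 reads.

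F2rl3 (PAR4; chromosome 8, 72761659 to 72763898) was low in every library. It had 3.75, 2.30 and 2.31 CPM in the panobinostat libraries and 4.70, 1.81 and 1.51 CPM in the vehicle libraries. Vehicle library 1 was the highest and the other vehicle libraries the lowest. The log2 fold change was 0.06 (SE 0.506, edgeR adjusted p = 0.998) and 0.74 without vehicle library 1 (edgeR adjusted p = 0.306). Shares were taken of the summed per-kilobase levels of F2r, F2rl1, F2rl2 and F2rl3. F2r made up 93.2% to 98.0% in the panobinostat libraries and 93.7% to 98.4% in the vehicle libraries. F2rl2 made up 0.802%, 3.73% and 5.97% in the panobinostat libraries and 5.28%, 0.210% and 0.165% in the vehicle libraries. F2rl1, which encodes the trypsin receptor PAR2 in the same gene cluster, stayed at or below 0.316 CPM.

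**Figure D2:**
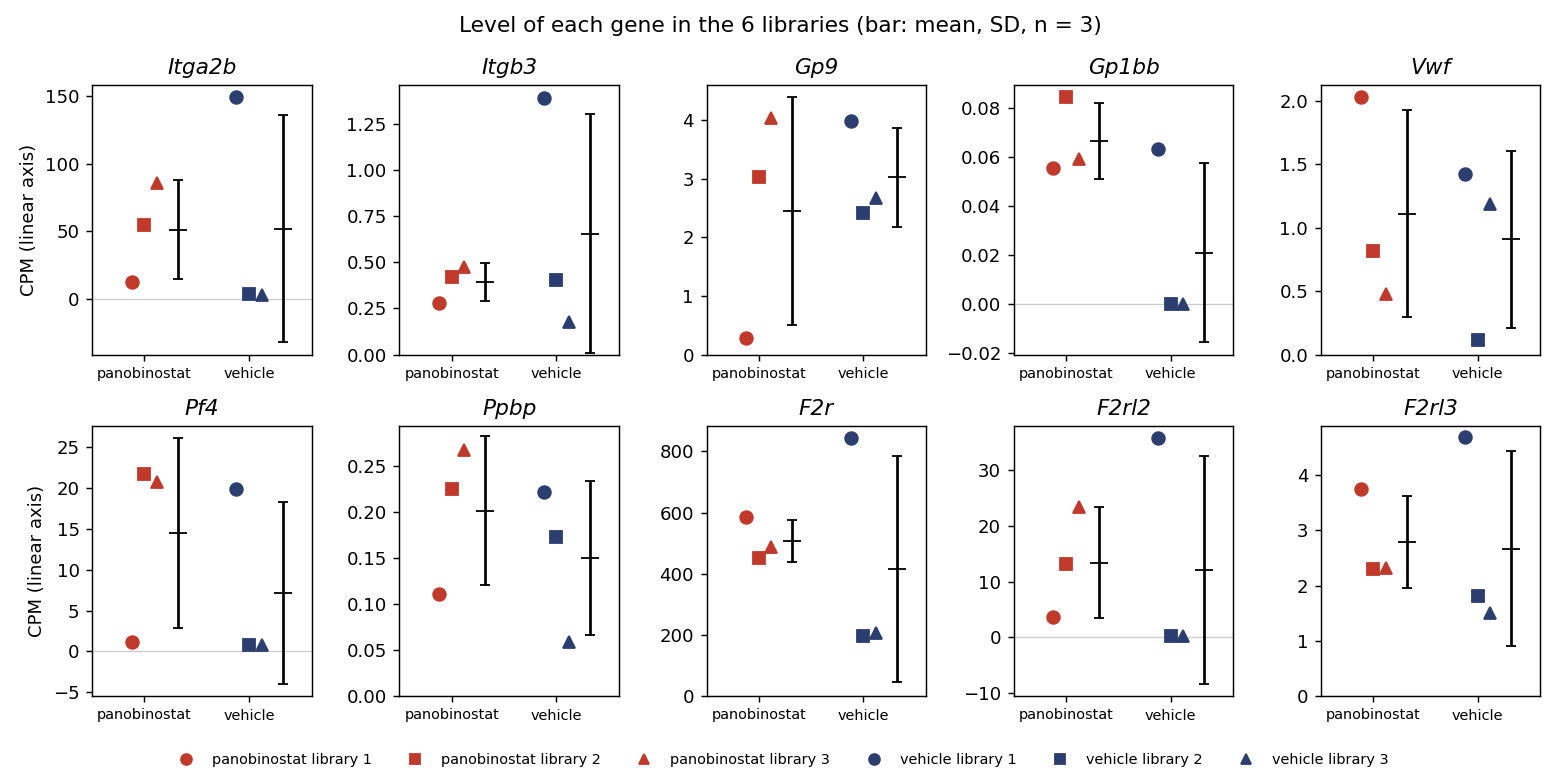
Level of each of the 10 genes in CPM (1 panel per gene, each with its own linear axis, where an SD bar can reach below 0), panobinostat libraries left of vehicle libraries. Points are libraries, bars are the mean and SD (n = 3 each). In the Itga2b, Pf4, F2r and F2rl2 panels vehicle library 1 lies far above the other 2 vehicle libraries.

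Across panobinostat and vehicle libraries, edgeR called 0 of 13207 tested genes at an adjusted p of 0.05 (percent called: 0), with 301 genes at an unadjusted p under 0.05. DESeq2 called 7 higher and 2 lower, and limma-voom 0. Of Itgb3, Gp9, Vwf and F2rl3, 0 of 4 had groups that did not overlap, against 7.43% of all tested genes. Without vehicle library 1, edgeR called 324 of 13369 genes (2.42%), 268 of them higher and 56 lower with panobinostat. Of the same 4 genes, 0 were called there either.

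The tested genes fell into patterns of different depth. Likeness was measured as the root mean square (RMS) difference of log2 CPM, centred on each gene's mean, over the 6 libraries, where 0 is an identical pattern. It was 0.656 between Itga2b and F2rl2, 0.668 between Itga2b and Pf4 and 1.05 between Pf4 and F2rl2. The closest pairs, all with shallow patterns, were F2r and F2rl3 at 0.330, Itgb3 and F2rl3 at 0.580 and Itgb3 and F2r at 0.629. Itga2b differed from its partner chain Itgb3 by 1.61 and from Gp9 by 2.09.

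**Figure D3:**
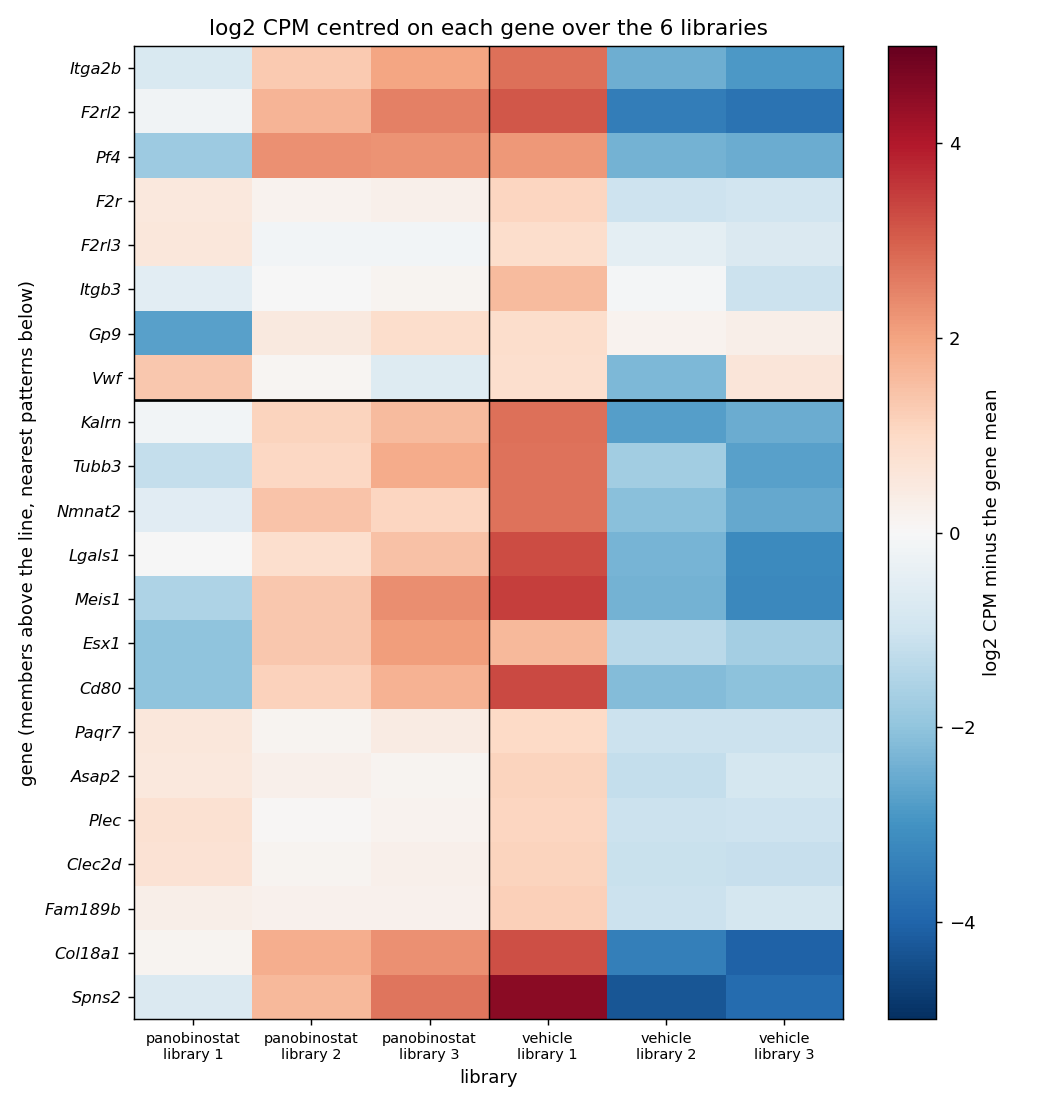
Log2 CPM of tested members and of genes near to Itga2b, Pf4, F2r and F2rl2, centred on each gene's mean (colour), in the 3 panobinostat libraries left of the 3 vehicle libraries. Vehicle library 1 is high and vehicle libraries 2 and 3 low for Itga2b, F2rl2 and their nearest genes.

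Among 9798 tested genes with a mean of at least 5 CPM, the nearest to F2rl2 was Col18a1, a basement membrane collagen chain, at an RMS difference of 0.227 (median over all candidates 2.74). Col18a1 had 35.2, 113 and 155 CPM in the panobinostat libraries and 295, 2.90 and 1.88 CPM in the vehicle libraries. Also near it were Itga2b at 0.656, Spns2 (a sphingosine-1-phosphate exporter) at 0.707 and Kalrn at 0.741. The genes nearest to Itga2b were Kalrn (a guanine nucleotide exchange factor, 0.373), Tubb3 (a beta tubulin, 0.374), Nmnat2 (an NAD-making enzyme), Lgals1 (galectin-1) and Meis1 (a homeobox transcription factor, 0.479). Those nearest to Pf4 were Itga2b, Tubb3, Esx1, Meis1 and Cd80, at 0.668 to 0.725. Those nearest to F2r were Paqr7, Asap2, Plec, Clec2d and Fam189b, at 0.0768 to 0.122. Genes were chosen here for likeness, so it is no independent evidence of any link.

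The wider pathway was read from 7 lists with 177 genes in the table, 129 of them tested. With all 6 libraries 0 of the 129 were called. The median log2 fold change was -0.14 for platelet surface receptors (5 of 16 tested higher, 11 lower), 0.16 for granule proteins and clotting factors (13 higher, 3 lower of 16) and 0.02 for megakaryocyte transcription factors (10 higher, 9 lower of 19). It was -0.02 for cytoskeleton and enzymes of megakaryocytes (8 higher, 8 lower of 16), 0.05 for thrombin receptor signalling (21 higher, 11 lower of 32), -0.22 for thrombin and protease regulators (3 higher, 4 lower of 7) and 0.06 for integrin activation and signalling (15 higher, 8 lower of 23). Over all tested genes it was 0.00, with 6632 higher and 6575 lower. Higher and lower are here the sign of the estimate, not a call. Without vehicle library 1 the medians were 0.17, 0.47, 0.29, 0.97, 0.17, -0.13 and 0.29 in the same order of lists, and -0.01 over all tested genes.

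**Figure D4:**
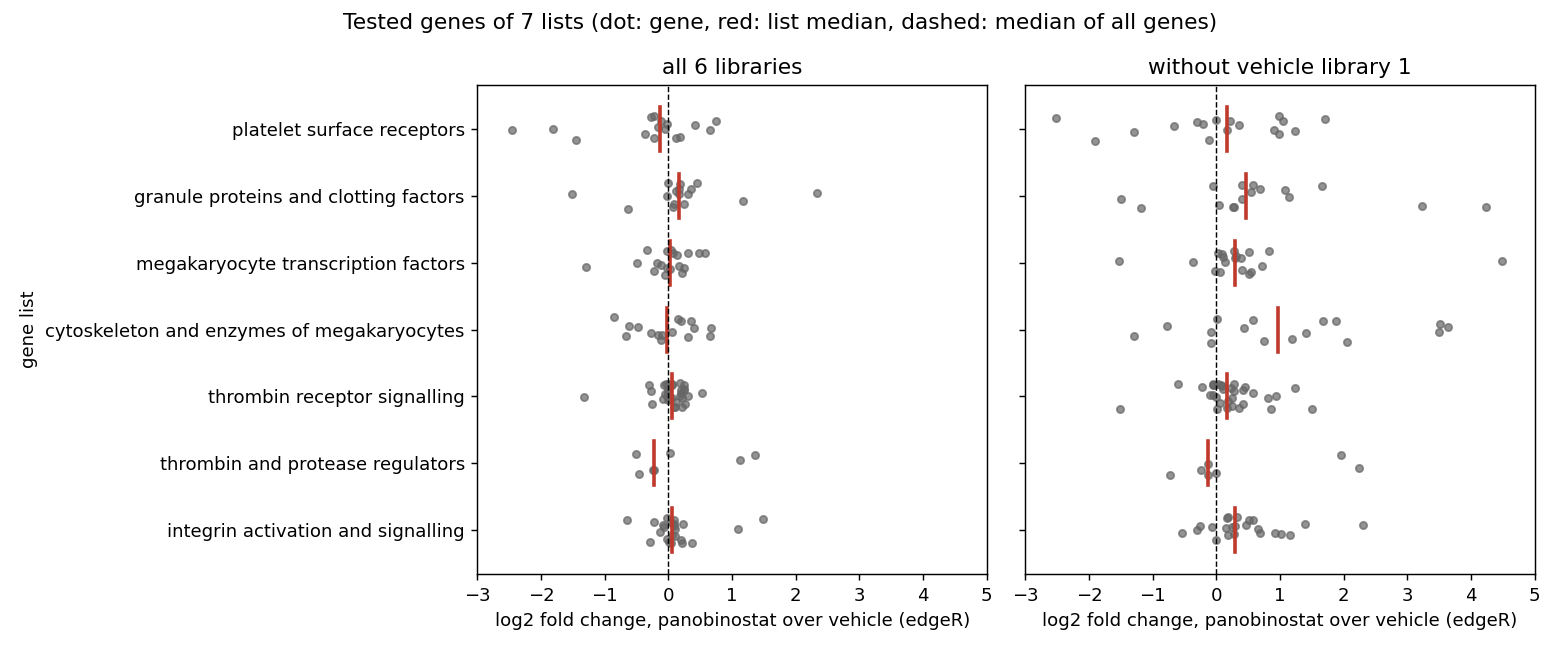
Log2 fold change, panobinostat over vehicle, of each tested gene in the 7 pathway lists (points), with the list median in red and the median of all tested genes as a dashed line. With all 6 libraries (left panel) list medians lie between -0.22 and 0.16, and without vehicle library 1 (right panel) between -0.13 and 0.97, the highest in the cytoskeleton and enzyme list.

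Among platelet surface receptors, Ptger3, a prostaglandin E2 receptor, had 125, 103 and 127 CPM in the panobinostat libraries and 87.0, 66.2 and 58.6 CPM in the vehicle libraries. Its groups did not overlap, and its log2 fold change of 0.75 (SE 0.174) had an edgeR adjusted p of 0.998 over all genes. Cd9, a tetraspanin of the platelet surface, had 0.0556, 0.112 and 0.0889 CPM (2 to 4 reads) in the panobinostat libraries and 0.442, 0.631 and 0.377 CPM (13 to 22 reads) in the vehicle libraries. Its groups did not overlap either, and its log2 fold change was -2.45 (SE 0.499, edgeR adjusted p = 0.998), and -2.52 without vehicle library 1 (edgeR adjusted p = 0.0965). Runx1, a transcription factor needed for megakaryocytes, averaged 434 ± 108 CPM with panobinostat and 292 ± 50.6 CPM with vehicle (SD, n = 3 each), and reads of the fusion transcript may add to its counts. Gata2 averaged 893 ± 192 and Tal1 507 ± 68.5 CPM with panobinostat, against 768 ± 155 and 463 ± 90.8 CPM with vehicle.

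Among the remaining list genes with the smallest p, Rab38, a small GTPase of granule formation, had 1.64, 0.393 and 0.919 CPM in the panobinostat libraries and 0.379, 0.0860 and 0.116 CPM in the vehicle libraries (log2 fold change 2.34, edgeR adjusted p = 0.998). Prkcb, a protein kinase C, had 0.528, 0.646 and 2.49 CPM in the panobinostat libraries and 2.30, 3.47 and 3.45 CPM in the vehicle libraries (log2 fold change -1.33). In both, the libraries of the panobinostat group differed among themselves several-fold, and for Rab38 those of the vehicle group did too. Rab38 had 59, 14 and 31 reads in the panobinostat libraries and 12, 3 and 4 reads in the vehicle libraries. Vehicle libraries 2 and 3 were thus at or near the 3-count limit.

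The estimates of the others ran in both directions. Log2 fold changes were negative for the scavenger receptor Cd36 (-1.82), the chemokine Ccl5 (-1.52), Mef2c (-1.30), Rgs10 (-0.86), Ehd3 (-0.62), Gna11 (-0.26), Ggcx (-0.22) and Pdlim1 (-0.16). They were positive for the kinase Src (1.48), the urokinase receptor Plaur (1.36), Egf (1.17), Pros1 (1.12), the calcium channel Itpr2 (0.53), Fli1 (0.48), Lcp2 (0.37) and the kinase Csk (0.21). Of these, 0 were called. Src and Plaur were highest in panobinostat library 1, at 4.36 and 4.31 CPM, against 0.506 and 0.393 CPM in panobinostat library 2.

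Among the most abundant list genes, Tln1 (talin, which activates integrins) averaged 1082 ± 62.9 CPM with panobinostat and 1017 ± 244 CPM with vehicle, and Fermt3 (kindlin-3) 804 ± 94.8 CPM and 742 ± 116 CPM in those groups (SD, n = 3 each). Srgn (serglycin, a granule proteoglycan) averaged 772 ± 260 CPM with panobinostat and 769 ± 67.5 CPM with vehicle. Tgfb1 averaged 533 ± 80.1 CPM with panobinostat and 414 ± 282 CPM with vehicle (log2 fold change 0.36), and without vehicle library 1 its log2 fold change was 1.07 (edgeR adjusted p = 0.0344). Plek (pleckstrin) averaged 391 ± 69.8 CPM with panobinostat and 296 ± 304 CPM with vehicle (log2 fold change 0.40), and without vehicle library 1 its log2 fold change was 1.68 (edgeR adjusted p = 0.0340). Myh9 (a non-muscle myosin chain) averaged 682 ± 55.5 CPM with panobinostat and 616 ± 282 CPM with vehicle (log2 fold change 0.15), and without vehicle library 1 its log2 fold change was 0.57 (edgeR adjusted p = 0.0612). Gnai2 averaged 548 ± 23.2 and Rhoa 440 ± 12.9 CPM with panobinostat, against 504 ± 86.9 and 425 ± 20.1 CPM with vehicle. Vkorc1, of vitamin K recycling, averaged 26.1 ± 0.269 CPM with panobinostat and 25.6 ± 4.98 CPM with vehicle. Itgb1, the common integrin beta chain, had 732, 594 and 479 CPM in the panobinostat libraries and 434, 946 and 950 CPM in the vehicle libraries, so here vehicle library 1 was the lowest of all 6.

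Platelet receptors differed widely in level, and 13 of the 25 in the list had a mean under 1 CPM, against 15421 of all 27179 genes. P2rx1, an ATP-gated channel, had 127, 99.7 and 99.9 CPM in the panobinostat libraries and 178, 63.9 and 45.6 CPM in the vehicle libraries. P2ry1, an ADP receptor, had 63.0, 95.6 and 109 CPM in the panobinostat libraries and 209, 46.6 and 42.7 CPM in the vehicle libraries. In both, vehicle library 1 was the highest and the other vehicle libraries the lowest. Treml1, a receptor of platelet granules, had 9.98, 14.6 and 13.3 CPM in the panobinostat libraries and 15.8, 10.9 and 14.3 CPM in the vehicle libraries. Gp6, the platelet collagen receptor, had 2 reads in vehicle library 1 and none in the other libraries, below the 3-count limit throughout. P2ry12, another ADP receptor of platelets, was at or below 0.111 CPM. Some megakaryocyte markers were thus well counted and others, with Ppbp and Gp1bb, near the 3-count limit, and the 10 genes are named here by their known roles, not by a cell type found in these libraries. F2, which encodes prothrombin, had 14.1, 10.6 and 5.69 CPM in the panobinostat libraries and 2.62, 16.7 and 16.6 CPM in the vehicle libraries. F3, tissue factor, had no read in any library.

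Without vehicle library 1, 13 of 130 tested list genes were called, all 13 higher with panobinostat, where 2.42% of all tested genes were called. Of these, 6 were in the list of cytoskeleton and enzymes, among them Tuba8 (an alpha tubulin, log2 fold change 3.63, edgeR adjusted p = 0.0173) and Tbxas1 (thromboxane synthase, 1.88, edgeR adjusted p = 0.0177). Tbxas1 had 80.7, 72.7 and 70.6 CPM in the panobinostat libraries and 100, 17.0 and 23.1 CPM in the vehicle libraries. Another 3 were in thrombin receptor signalling, 2 in granule proteins, 1 in surface receptors (Ptger3) and 1 in protease regulators (Pros1, the protein S gene). Each of these calls rests on leaving out a vehicle library that itself had the highest level for all of them but Ptger3 and Pros1. In the list of cytoskeleton and enzymes, vehicle library 1 was the highest of all libraries for 13 of 16 tested genes (81.2%), against 22.4% of all tested genes. That share was 14.3% in thrombin and protease regulators and 43.8% to 52.6% in the remaining pathway lists.

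Markers of other cell types moved between libraries too. The 18 erythroid markers summed to 6175, 22554 and 27999 CPM in the panobinostat libraries and 28328, 18754 and 12989 CPM in the vehicle libraries, lowest in panobinostat library 1. Gp9 was lowest in that library too, while Pf4 was lower still in vehicle libraries 2 and 3. The 15 mast cell and basophil markers summed to 1840 to 3652 CPM with panobinostat and 1627 to 2093 CPM with vehicle. The 15 stem and progenitor markers summed to 1395 to 1871 CPM with panobinostat and 1191 to 1658 CPM with vehicle. B cell markers summed to 16.3 to 113 CPM with panobinostat and 96.4 to 249 CPM with vehicle. Their part in the levels of the 10 genes was not tested.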

How the data were processed

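The authors deposited whole-number read counts per gene, not normalized, for 6 libraries. The submitters' processing notes name mm10 as the build, and list HISAT2 2.1.0, Subread 2.0.0 with featureCounts, limma, cutadapt 2.1, FastQC 0.11.6 and bcl2fastq 2.17.1.14 as tools. Strandedness, options and annotation were not given in the sources used here. Entrez identifiers were matched to RefSeq symbols of GRCm38.p6 for 25275 of 27179 genes.

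Genes kept by filterByExpr (minimum count 10) were compared between groups with edgeR 4.0.16 (R 4.3.3), using TMM factors and the robust quasi-likelihood F-test, two-sided, adjusted by Benjamini and Hochberg's method at 0.05. The standard error is the log2 fold change divided by the square root of F. CPM use TMM-scaled library sizes. Levels per kilobase use the longest GENCODE M21 transcript paired with a curated RefSeq mRNA. The test was also tested on simulated data. Alternatives were DESeq2 1.42.0, limma-voom 3.58.1, other filters and scalings, a replicate block and leaving out libraries.

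The 10 genes and the lists were chosen with earlier results of these data known. Named genes are the 10, list genes with the 3 smallest p or 2 highest mean CPM, and the 5 nearest patterns (prior count 2). Itgav, F2rl1, Iqgap2, Gp6, P2ry12, P2rx1, P2ry1, Treml1, F2, F3, Gp1ba, Tuba8 and Tbxas1 were added after their values were seen. Some named by rule are not reported here.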

Additional observations from a re-analysis of the deposited data

How the results depend on the processing

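Of Itgb3, Gp9, Vwf and F2rl3, 0 were called under any alternative run, but their directions were not stable. Leaving out each library in turn gave log2 fold changes of -1.18 to 0.43 for Itgb3 (-0.73 with all 6), -0.87 to 0.23 for Gp9 (-0.30), -0.49 to 0.74 for Vwf (0.29) and -0.22 to 0.74 for F2rl3 (0.06). The sign turned for Itgb3 without vehicle library 1 (0.43), for Gp9 without panobinostat library 1 (0.23), for Vwf without panobinostat library 1 (-0.49) or vehicle library 2 (-0.23), and for F2rl3 without panobinostat library 1 (-0.21), vehicle library 2 (-0.15) or vehicle library 3 (-0.22). Without both libraries numbered 1, Itgb3 was at 0.62, Gp9 at 0.47 and Vwf at -0.03, the signs again turned. That setting called 974 genes higher and 616 lower, 41 and 5 of them in the pathway lists. Leaving out single libraries called 0 to 268 genes higher and 0 to 56 lower, and 0 to 13 list genes higher, the upper ends without vehicle library 1. DESeq2 called 7 higher and 2 lower. The cause was not tested. With the column number as a replicate block, 0 genes were called in either direction, and Itgb3 was at -0.31, Gp9 at -0.70, Vwf at 0.53 and F2rl3 at 0.21. With the block Itga2b was at 2.63 (-0.02 without it), Pf4 at 3.06 (1.02), F2rl2 at 3.87 (0.15) and F2r at 0.65 (0.29), and limma-voom put them at 1.77, 1.87, 2.88 and 0.63. Same-numbered libraries did not deviate together (r = -0.139, 0.0720 and -0.203 across genes). With so few libraries per group this cannot decide whether the number pairs them, and the labels do not state it. Ppbp and Gp1bb were too low for any statement on direction, and Itgb3 was not tested with a minimum mean of 1 CPM.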

Other observations

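Genes beside the members on the chromosome did not share one pattern. Slc4a1, the red cell anion exchanger near Itga2b, had 35.1, 470 and 814 CPM in the panobinostat libraries and 307, 964 and 660 CPM in the vehicle libraries, so vehicle library 1 was not the highest. Fam171a2, also near Itga2b, had 0.0556, 0.534 and 1.01 CPM in the panobinostat libraries and 1.26, 0.0860 and 0 CPM in the vehicle libraries. In the chemokine cluster of Pf4 and Ppbp, Cxcl15 had no read in any library. Cxcl3 had 0, 12 and 35 reads in the panobinostat libraries and 9, 0 and 0 reads in the vehicle libraries. It was thus counted only in the libraries where Pf4 was high, at 1.04 CPM or less. Cxcl5 had 2, 5 and 6 reads in the panobinostat libraries and 7, 0 and 1 reads in the vehicle libraries. Rundc3a, Slc25a39, Grn and Gpatch8, also near Itga2b, differed 1.33- to 1.81-fold between highest and lowest library. These genes were chosen for their position, within 100000 bases of Itga2b, Pf4 or Ppbp. Neighbours of the other members are not all described here.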
